A study of Mus musculus with 10 samples.

Results

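The arrays described here compare unstimulated bone marrow (BM)-derived eosinophils (BMEos) with unstimulated BM-derived mast cells. They are 4 of the 10 arrays of the series, chosen by cell type and by the absence of a stimulus. Each cell type has 1 array of B6 (wild type) cells and 1 array of Slpi-/- cells, which lack secretory leukoprotease inhibitor, so each BMEos array is paired with the mast cell array of the same genotype. All cells came from mice labelled C57BL6/N. BMEos were grown from BM cells with stem cell factor and Flt3 ligand and then with IL-5, whereas mast cells were grown with IL-3 for weeks, so the cell type and its culture cannot be told apart. The other arrays held BM-derived basophils (BMBs) with or without IgE and antigen, and BMEos given LPS. The 2 unstimulated BMB arrays, of cells grown with IL-3 and sorted as c-kit- DX5+, entered the fit to add to the estimate of the spread, and their signals are given below as a reference level.

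Eosinophils are granulocytes that mature in the BM under IL-5, store cationic proteins in their granules, and move through the blood into inflamed tissue. Mast cells mature in tissues under stem cell factor, store proteases, histamine and heparin in their granules, and carry IgE on the high-affinity IgE receptor, FcεRI. Both release lipid mediators and cytokines in allergic inflammation.

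Signals are log2 values of robust multi-array averaging (RMA), and a difference of 1 is a 2-fold change. A gene counted as above background where its signal passed the 95th percentile of 1015 olfactory receptor genes of that array, which lay between 5.65 and 5.79 on the 4 arrays. Of 12970 named genes tested with limma, 3167 (24.4%) were higher and 3479 (26.8%) lower in BMEos than in mast cells at an adjusted p under 0.05. At least 2-fold differences were found for 1195 higher genes (9.21%) and 1156 lower genes (8.91%), and 105 and 91 genes differed at least 16-fold. The median absolute difference was 0.34, against a median standard error (SE) of 0.11. Of the 6646 genes that passed, 0 had opposite directions in B6 and Slpi-/- cells. This follows largely from the test, since a gene with opposite directions has a mean near 0 for its spread and could hardly pass. Across the genes tested, the BMEos arrays of the 2 genotypes correlated at 0.993 and the mast cell arrays at 0.991, while arrays of different cell types and the same genotype correlated at 0.742 in B6 and 0.741 in Slpi-/- cells. Only 14 genes differed at least 2-fold between genotypes in BMEos and 15 in mast cells, compared with 2339 between the cell types in B6 cells and 2401 in Slpi-/- cells. Genes are not independent replicates, and these correlations describe the arrays.

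**Figure D1:**
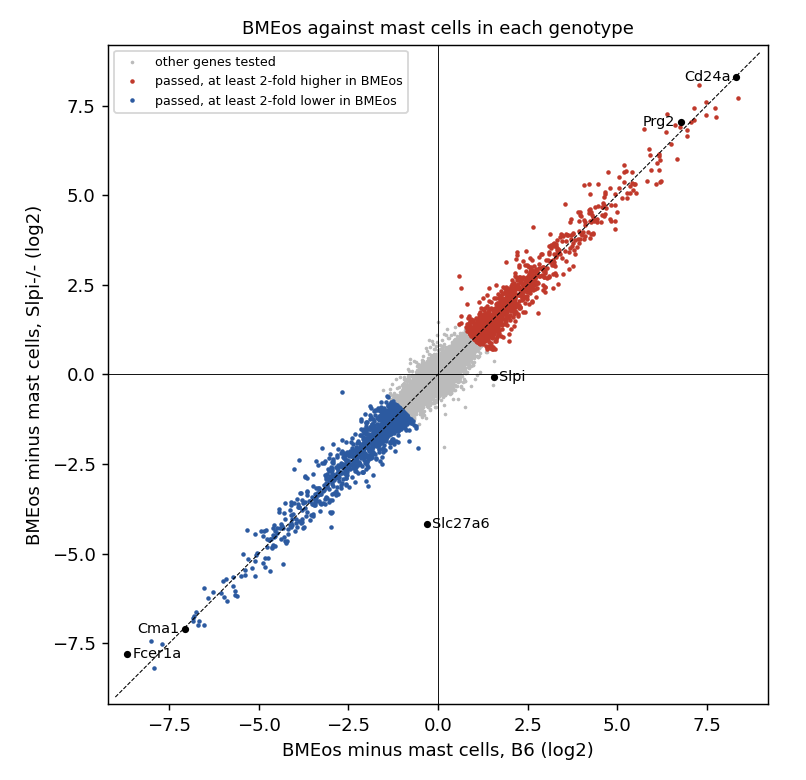
Each point is 1 of 12970 genes tested, placed by the log2 difference BMEos minus mast cells in B6 cells (horizontal axis) and in Slpi-/- cells (vertical axis). Red and blue points passed and were at least 2-fold higher (1195) or lower (1156) in BMEos, the broken line marks equal differences, and Slc27a6 and Slpi lie away from that line.

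With 2 arrays per cell type, an exact permutation test cannot go below p = 0.333, so the adjusted p-values rest on the spread that limma shares across genes. They measure the spread between these arrays, which come from separate genotypes and are not known to be separate cultures of 1 condition. Of the genes at least 2-fold higher in BMEos, 290 were not above background on either mast cell array, and 396 of the lower genes were not above background on either BMEos array. For such genes only a lower bound of the fold difference can be given, with the dim cell type set at the background where its signal was below it. A gene above background in a single cell type entered the test through that cell type, which largely set its direction. Counts of genes at least 2-fold apart use the fitted differences of the measured signals, so some genes counted there have a bound under 2-fold. The counts of the gene lists below are to be read beside the 24.4% higher and 26.8% lower of all genes tested. In bulk RNA, fewer cells of a type and less RNA per cell cannot be told apart.

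The labels held for the genes that define both cell types. Prg2 (gene ID 19074, chromosome 2), the gene of eosinophil major basic protein, had signals of 12.20 and 12.02 in B6 and Slpi-/- BMEos and of 5.43 and 4.98 in mast cells. Cma1 (gene ID 17228, chromosome 14), which encodes a mast cell chymase, had signals of 4.93 and 5.08 in BMEos and of 11.99 and 12.19 in mast cells. The groups did not overlap for either gene, and the differences were at least 82.9-fold and at least 85.6-fold.

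The granule genes of each cell type were among those that separated the arrays most. Of 10 listed genes of eosinophil granule proteins, 6 were measured and 5 were tested. All 5 passed with fitted differences of at least 2-fold higher in BMEos. Their median difference was 6.16, or 5.19 with the genes below background set at their bounds, compared with a median of -0.04 over all genes tested. Prg2, Ear6, Epx and Prg3 were below background on all mast cell and BMB arrays. They passed the filter on signal only through BMEos, which largely set their direction in advance. Ear6, an eosinophil ribonuclease gene of a family of near-identical copies, had signals of 13.10 and 12.81 in BMEos and of 5.37 on both mast cell arrays, at least 149-fold higher. Epx, which encodes eosinophil peroxidase, had signals of 11.17 and 10.67 in BMEos against 5.00 and 4.53 in mast cells. Its difference was at least 36.4-fold, with an adjusted p of 2.3e-07 by limma. Prg3, a homologue of Prg2, was at least 12.4-fold higher, and Rnase2a, another ribonuclease gene of that family, at least 1.63-fold higher. Prg2 and Ear6 were near the mast cell level in BMBs too, with signals of 5.35 and 5.58 and of 5.37 and 5.47.

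Of 10 tested genes of the mast cell granule protease list, 9 were lower in BMEos, 8 of them with fitted differences of at least 2-fold, and the median difference was -3.95 (-3.20 with the bounds). Among those 8, Mcpt2 had a bound of only 1.09-fold and Mcpt4 had none above 1. Gzmb, which encodes granzyme B, had signals of 4.40 and 4.15 in BMEos and of 12.32 and 12.33 in mast cells, at least 101-fold apart. The tryptase gene Tpsb2 had signals of 5.49 and 5.73 in BMEos and of 12.32 and 12.63 in mast cells. Cpa3, which encodes carboxypeptidase A3, was at 13.11 on both mast cell arrays and at 7.49 and 6.93 in BMEos, which was still above background, and its difference was -5.90 (SE 0.16, adjusted p = 5.0e-07 by limma). Tpsg1, a gene of a membrane-bound tryptase, fell by 5.09 (SE 0.22). The chymase genes Mcpt2 and Mcpt4, both close to background in these mast cells, had signals of 5.94 and 5.65 and of 4.71 and 5.97 there. Mcpt4 passed with a difference of -1.30 (SE 0.31, adjusted p = 0.011), but it was above background on 1 mast cell array only, and it did not pass without the Slpi-/- BMEos array. The chymases and tryptases have close relatives whose probes may share transcripts, so the division of signal between members is uncertain.

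The proteases that mark BMBs were at or near background in both BMEos and mast cells. Mcpt8, the basophil protease gene, had signals of 5.25 and 5.18 in BMEos and of 5.43 and 5.13 in mast cells against 12.96 and 12.72 in BMBs, and Prss34, a basophil tryptase gene, had signals of 5.64 to 6.58 on the 4 arrays against 12.99 and 12.78 in BMBs. The difference of Prss34 between BMEos and mast cells (-0.54, SE 0.19) passed at an adjusted p of 0.049 by limma, but it did not pass after centring or quantile normalization, with no filter on signal, or without either B6 array.

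Proteases and amines of mast cell granules are packed on heparin, which is built on the serglycin core protein. Srgn, the serglycin gene, had signals between 12.95 and 13.01 on the 4 arrays, where the cell types overlapped, and the 95% confidence interval of its log2 difference ran from -0.21 to 0.26. The enzymes that make the sugar chains differed. Of 19 tested genes of serglycin, heparin and histamine, 12 were lower in BMEos, 7 of them at least 2-fold, and 3 were higher. Ndst2, which encodes the N-sulfotransferase of heparin synthesis, had signals of 9.02 and 9.06 in BMEos and of 11.90 and 11.95 in mast cells, a difference of -2.89 (SE 0.10). The heparan sulfotransferase genes Hs3st1 and Hs6st1 fell by 4.28 (SE 0.13) and 2.34 (SE 0.12). Chst11, a chondroitin sulfotransferase gene, fell by 1.68, whereas Chst12, another gene of that enzyme class, was 1.61 higher in BMEos (SE 0.11 for Chst12).

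The amine genes differed in size. Slc18a2, which encodes the vesicular monoamine transporter that loads histamine and serotonin into granules, had signals of 6.91 and 6.53 in BMEos and of 12.55 and 12.57 in mast cells, a difference of -5.84 (SE 0.17). Tph1, which encodes the rate-limiting enzyme of serotonin synthesis, was at 4.93 and 5.16 in BMEos and at 12.62 and 12.67 in mast cells, at least 126-fold lower in BMEos, and BMBs were at 5.76 and 5.79. Hdc, the histidine decarboxylase gene of histamine synthesis, differed less, with signals of 7.98 and 7.76 in BMEos and of 8.83 and 8.50 in mast cells (difference -0.79, SE 0.10, adjusted p = 0.00058 by limma), and both lay below the 12.35 and 12.21 of BMBs.

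**Figure D2:**
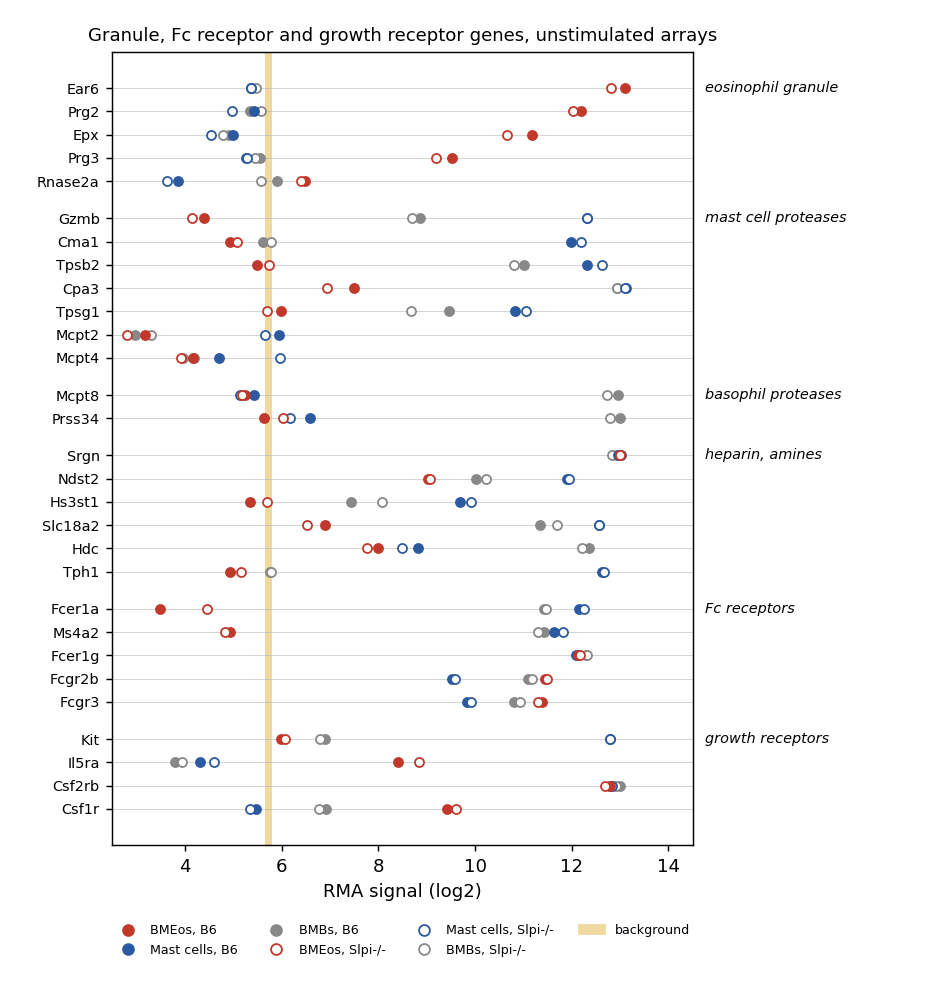
RMA signals (log2, horizontal axis) of granule, Fc receptor and growth receptor genes on the 6 unstimulated arrays, with filled points for B6 and open points for Slpi-/- cells and the range of the background of the 4 BMEos and mast cell arrays (5.65 to 5.79) shaded. The BMEos points of Ear6, Prg2 and Epx lie at 10.67 or above and the mast cell points in or below the shaded range, while the points of Srgn, Fcer1g and Csf2rb lie close together in all cell types.

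FcεRI is built from an IgE-binding α chain, a signalling β chain and a γ chain that it shares with other Fc receptors. The α and β chain genes were at background in BMEos. Fcer1a (α) had signals of 3.48 and 4.45 in BMEos and of 12.16 and 12.24 in mast cells, and Ms4a2 (β) of 4.94 and 4.82 against 11.64 and 11.82, at least 92.6-fold and at least 66.7-fold lower in BMEos. Fcer1g, the γ chain gene, had signals of 12.14 and 12.17 in BMEos and of 12.09 and 12.12 in mast cells, with a 95% confidence interval of the difference from -0.18 to 0.27. The low-affinity IgG receptor genes were higher in BMEos. Fcgr2b, which encodes the inhibitory receptor, was higher by 1.92 (SE 0.09) and Fcgr3, which encodes an activating one, by 1.47 (SE 0.10), with signals of 11.45 and 11.50 and of 11.38 and 11.31 in BMEos. Lgals3, which encodes the IgE-binding lectin galectin-3, was higher by 2.79 (SE 0.11).

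The genes below the receptor differed in both directions. Of 18 tested signalling genes, 9 were lower and 6 higher in BMEos, and 6 and 4 of them at least 2-fold. The adaptor genes Lat and Grap2 had signals of 6.36 on both BMEos arrays and of 10.47 and 10.61 in mast cells, and of 5.03 and 4.64 against 9.87 and 9.76. Plcg1, which encodes phospholipase Cγ1, fell by 3.27 (SE 0.12), and Rasgrp1, a Ras activator gene, was at least 5.76-fold lower. Relatives could differ, since Plcg2, which encodes phospholipase Cγ2, was higher by 1.87 and the Ras activator gene Rasgrp4 by 0.84, and the Src family kinase gene Fyn was lower with a difference of -1.12. Fyn, Rasgrp4 and Plcg2 were picked after their values were seen. Other kinase genes were higher in BMEos. Fgr, a Src family kinase gene, had signals of 9.43 and 9.50 in BMEos and of 5.52 and 5.71 in mast cells, and Tec was at 10.39 and 10.38 against 7.08 and 7.02, differences of 3.85 and 3.34. Btk, a kinase gene of the family of Tec, and the adaptor gene Lcp2 did not pass, with differences of 0.17 and -0.25.

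Letters in promoters are shown for 4 of the genes that differed most, a pair higher in BMEos and a pair lower, to set the sequence beside the expression. The 250 bases before the start of each gene were taken from RefSeq (GRCm38.p6) and run 5′ to 3′ on the strand of the gene. For Ear6 (chr14:51853518-51853767, plus strand) and Cyp4f18 (chr8:72009627-72009876, minus strand), capitals mark a match of TTNNGNAA, letters bound by C/EBP factors, or of its reverse complement TTNCNNAA, and in both promoters the match is of the reverse complement. For Fcer1a (chr1:173227230-173227479, minus strand) and Cma1 (chr14:55944676-55944925, minus strand), capitals mark GATAA, letters bound by GATA factors, or its reverse complement TTATC.
Ear6: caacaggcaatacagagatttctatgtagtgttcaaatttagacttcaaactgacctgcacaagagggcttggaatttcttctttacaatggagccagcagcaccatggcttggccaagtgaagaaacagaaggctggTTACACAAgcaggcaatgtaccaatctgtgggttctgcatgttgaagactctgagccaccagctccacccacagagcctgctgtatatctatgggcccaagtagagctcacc
Cyp4f18: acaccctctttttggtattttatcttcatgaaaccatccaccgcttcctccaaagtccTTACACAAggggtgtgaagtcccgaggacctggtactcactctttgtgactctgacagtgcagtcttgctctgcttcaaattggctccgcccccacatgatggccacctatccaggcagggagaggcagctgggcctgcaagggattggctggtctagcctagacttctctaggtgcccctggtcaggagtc
Fcer1a: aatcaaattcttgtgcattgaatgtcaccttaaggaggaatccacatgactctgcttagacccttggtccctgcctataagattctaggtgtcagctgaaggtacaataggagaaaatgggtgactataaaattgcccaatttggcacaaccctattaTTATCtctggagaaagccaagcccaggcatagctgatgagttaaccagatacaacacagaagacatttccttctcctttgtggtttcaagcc
Cma1: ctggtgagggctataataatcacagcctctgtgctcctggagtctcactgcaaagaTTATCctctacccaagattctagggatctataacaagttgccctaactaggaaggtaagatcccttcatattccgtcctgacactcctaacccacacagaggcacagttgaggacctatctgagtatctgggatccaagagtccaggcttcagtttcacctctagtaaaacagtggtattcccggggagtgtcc
Both strands were searched. TTNNGNAA or its reverse complement was present in 6 of the 9 genes with a promoter entry among the 15 with the highest differences, and in 5 of the 13 among the 15 with the lowest, against 40.3% of the 27025 genes of the table. GATAA was present in 3 of 9 and 4 of 13 genes against 25.5%, and GAGGAA, letters bound by ETS factors such as PU.1, in 4 of 9 and 4 of 13 against 25.9%. The E-box letters bound by MITF were rarer, with CACGTG in 0 of 9 and 0 of 13 genes against 6.86%, and CATGTG in 1 of 9 and 2 of 13 against 13.8%. The motifs marked do not separate the promoters shown, since that of Cyp4f18 also held the GATA letters and that of Fcer1a also held the C/EBP letters. Both also held the ETS letters and the E-box CATGTG, and these matches are left in lower case. No marked match overlapped a match of another of these motifs. These are matches of letters and were not tested.

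Receptors for growth factors and cytokines differed in both directions. Kit, the stem cell factor receptor gene, had signals of 5.99 and 6.07 in BMEos and of 12.78 and 12.80 in mast cells, a difference of -6.76 (SE 0.10). Il5ra, which encodes the α chain of the IL-5 receptor, was at 8.41 and 8.85 in BMEos and at 4.31 and 4.61 in mast cells, at least 7.44-fold higher in BMEos. Csf2rb, the shared β chain gene of the IL-3, IL-5 and GM-CSF receptors, was at 12.78 and 12.69 against 12.80 and 12.83, with a 95% confidence interval of its difference from -0.31 to 0.15. In all, 8 of 25 tested receptor genes were higher and 11 lower. Ifngr2, a chain of the interferon-γ receptor, was at 10.23 and 10.32 in BMEos and below background in mast cells (5.57 and 5.28), at least 23.2-fold higher. Csf1r, the receptor gene of macrophage colony-stimulating factor, was at least 13.8-fold higher. Il2ra and Il18r1, receptor genes for IL-2 and IL-18, were lower in BMEos, the former at least 9.65-fold and the latter by 3.23 (SE 0.14).

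Chemoattractant receptors were mostly higher in BMEos, 15 of 26 tested genes, 10 of them at least 2-fold, with 5 lower. Ccr3, the eotaxin receptor gene of eosinophils, had signals of 12.25 and 12.30 in BMEos and of 6.82 and 6.65 in mast cells, a difference of 5.54 (SE 0.21). Cxcr4, which encodes the receptor that holds leukocytes in the BM, rose from 5.90 and 6.14 in mast cells to 11.27 and 11.21 in BMEos. Cxcr2, best known as a neutrophil receptor gene, was at 9.52 and 9.57 in BMEos against 4.34 and 3.74, and BMBs had 11.42 and 11.41. Ptafr, the receptor gene of platelet-activating factor, was higher by 3.67 (SE 0.16). The fractalkine receptor gene Cx3cr1 went the other way, with signals of 6.53 and 6.30 in BMEos and of 11.15 and 11.13 in mast cells, as did the histamine receptor gene Hrh4, at 5.20 and 5.11 against 9.70 and 9.53. BMBs were near BMEos for Cx3cr1 (6.48 and 6.18) and near mast cells for Hrh4 (9.52 and 9.75).

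Among 14 tested genes for Mas-related, nucleotide and some other receptors, 3 were higher and 6 lower in BMEos. No adenosine receptor gene was among the 14 tested. Mrgprb2, the mast cell receptor gene for basic secretagogues, had signals of 8.96 and 8.52 in mast cells and was below background in BMEos (3.65 and 4.18), at least 8.41-fold lower. Mrgpra4, a receptor gene of that family with close relatives, was at 11.36 and 11.80 in mast cells and at 10.12 and 9.94 in BMBs against 4.83 and 4.82 in BMEos, at least 60.2-fold lower. The ATP-gated channel gene P2rx7 fell by 5.07 (SE 0.48), while P2ry10 and P2ry2, genes of G-protein-coupled receptors for a lysophospholipid and for ATP and UTP, were 3.53 (SE 0.11) and 2.93 (SE 0.14) higher in BMEos.

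Of 30 tested genes of integrins, selectin ligands and adhesion, 18 were higher (60.0%, against 24.4% of all genes tested), 15 of them at least 2-fold, and 7 lower (23.3%, against 26.8%), with a median difference of 0.95 (0.77 with the bounds). Itgam, which encodes the α chain of Mac-1 (CD11b), had signals of 11.65 and 11.59 in BMEos and of 5.15 and 5.17 in mast cells, at least 59.0-fold higher. Its partner Itgb2, the β2 chain gene, was at 11.74 and 11.82 against 7.38 and 7.55. The other α chains that pair with β2, encoded by Itgal and Itgax, were 4.21 higher (SE 0.16) and at least 15.1-fold higher, and Itga4, which encodes the α4 chain of the VCAM-1 receptor, was at least 13.7-fold higher. Itgb7 and Itgb3, which encode other β chains, did not pass, with differences of 0.21 and -0.05. Cd34, which encodes a sialomucin of progenitors and mast cells, had signals of 7.97 and 8.30 in BMEos and of 11.28 and 11.49 in mast cells.

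Inhibitory and paired receptors included the best known surface marker of mouse eosinophils. Siglecf had signals of 10.64 and 10.80 in BMEos and of 5.96 and 6.33 in mast cells, a difference of 4.57 (SE 0.10), and the related Siglecg was higher by 4.64 (SE 0.18). Clec12a, an inhibitory lectin receptor gene, was at 10.64 and 10.77 against 3.59 and 3.73, at least 31.3-fold higher. In the other direction, Cd200r3, an activating receptor gene of basophils and mast cells, was at 3.96 and 4.21 in BMEos, at 9.39 and 9.22 in mast cells and at 11.06 and 11.16 in BMBs. The list held 30 tested genes, 15 higher and 10 lower.

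Transcription factors of the lineages differed in both directions, and their list had a median difference of -0.12. Of 49 tested genes, 15 were higher in BMEos (30.6%), 10 of them at least 2-fold, and 21 were lower (42.9%), 15 of them at least 2-fold. Cebpe, a factor of granulocyte maturation, had signals of 10.36 and 10.34 in BMEos and of 6.12 and 6.06 in mast cells. Nfil3, a basic leucine zipper factor, was at 10.69 and 10.57 against 5.86 and 5.85, and Ikzf3, the Aiolos gene of the Ikaros family, at 9.94 and 9.99 against 4.99 and 4.95, at least 18.8-fold higher. Nfil3 was also high in BMBs (9.25 and 9.28), whereas Cebpe (5.99 and 5.79) and Ikzf3 (6.05 and 6.29) were not.

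Mitf, the factor that drives the mast cell programme, had signals of 10.57 and 10.66 in mast cells and of 6.02 and 6.30 in BMEos, a difference of -4.45 (SE 0.13). Gata2, a GATA factor of mast cells and basophils, was at 12.01 and 12.10 in mast cells and 12.20 and 12.27 in BMBs against 8.92 and 8.99 in BMEos, a difference of -3.10 (SE 0.09). The progenitor factor gene Meis1 and the Notch target gene Hes1 were at least 7.87-fold and at least 8.97-fold lower in BMEos, and Myb fell by 2.48 (SE 0.14). Xbp1 and Id2, with differences of 0.07 and 0.03, did not pass. Gata1 and Cebpa, factors of the eosinophil lineage picked after their values were seen, did not pass either, with differences of 0.05 (adjusted p = 0.74 by limma) and 0.40 (adjusted p = 0.069). Of 13 tested progenitor markers, none (0) was higher in BMEos. The other direction held for 10 (76.9%, against 26.8% of all genes tested), 9 of them at least 2-fold. Besides Kit, Cd34, Meis1, Gata2 and Myb, the lower ones included Angpt1, the angiopoietin-1 gene. Angpt1 was at 9.46 and 9.67 in mast cells and at 4.84 and 4.86 in BMEos. Kit, Cd34 and Gata2 are also genes of mast cells, so this count gives no measure of progenitors.

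**Figure D3:**
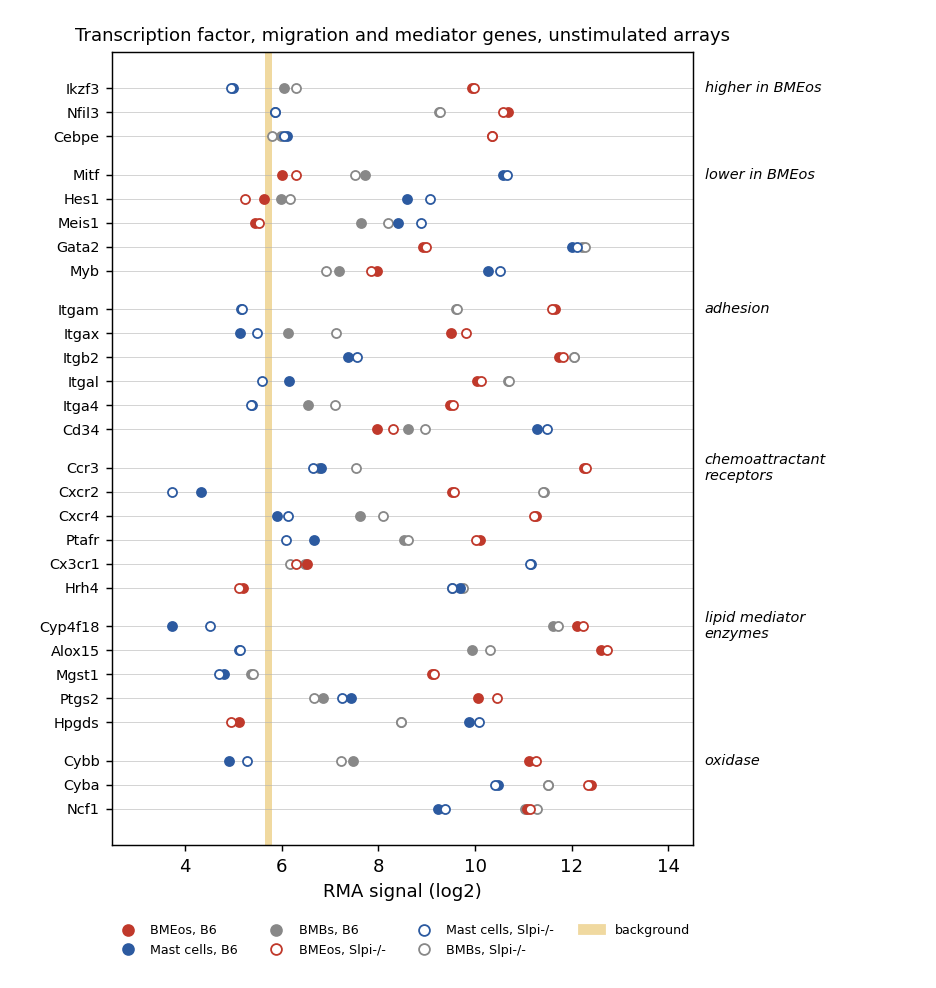
RMA signals (log2, horizontal axis) of transcription factor, adhesion, chemoattractant receptor, lipid mediator and oxidase genes on the 6 unstimulated arrays, drawn as filled points for B6 and open points for Slpi-/- cells, with the background range (5.65 to 5.79) shaded. The genes shown were taken from those that passed, so their BMEos and mast cell points lie apart by choice. The BMB points lie near BMEos for Cyp4f18 and Itgb2 and near mast cells for Gata2 and Hrh4.

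Enzymes of lipid mediators were among the genes with the largest differences. Cyp4f18, which encodes a hydroxylase of leukotriene B4, had signals of 12.10 and 12.24 in BMEos and of 3.73 and 4.51 in mast cells. It was at least 86.4-fold higher in BMEos. Alox15, the 12/15-lipoxygenase gene, was at 12.60 and 12.72 against 5.11 and 5.13, at least 121-fold higher. Both were also high in BMBs, at 11.62 and 11.71 and at 9.95 and 10.30. Ptgs2, the inducible cyclooxygenase gene, was higher by 2.91 (SE 0.16), and Mgst1, a microsomal glutathione transferase gene, at least 10.5-fold higher. Hpgds, which encodes the hematopoietic prostaglandin D synthase, went the other way, at 5.13 and 4.96 in BMEos and at 9.87 and 10.08 in mast cells, at least 19.7-fold lower. Of 23 tested genes of the list, 9 were higher (39.1%) and 6 lower (26.1%). The lower ones included genes of leukotriene synthesis, picked after their values were seen, such as Alox5, the 5-lipoxygenase gene, with a difference of -0.80, and Ltc4s, the leukotriene C4 synthase gene, with -0.93.

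The phagocyte NADPH oxidase makes superoxide at the membrane and in the granules. Cybb, which encodes its catalytic subunit, had signals of 11.12 and 11.27 in BMEos and of 4.92 and 5.29 in mast cells, at least 43.9-fold higher. Cyba, the gene of its membrane partner, and Ncf1, a cytosolic organizer gene, were present in both and higher in BMEos by 1.92 (SE 0.09) and 1.80 (SE 0.10), and so was the proton channel gene Hvcn1, by 1.80 (SE 0.10). The small GTPase genes Rac1 and Rac2 did not pass, with differences of -0.28 and -0.22. Slc7a11, the cystine transporter gene that feeds glutathione synthesis, was at 10.94 and 10.73 against 5.11 and 5.34, and in all 11 of 20 tested genes were higher and 3 lower.

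Sensors of microbes differed gene by gene. Tlr4, the LPS receptor gene, had signals of 8.86 and 8.91 in BMEos and of 7.11 and 6.89 in mast cells, a difference of 1.89 (SE 0.11), and Tlr13, the sensor gene for bacterial ribosomal RNA, was at least 17.2-fold higher. Nlrp3, the inflammasome gene, was lower in BMEos, at 4.92 and 4.01 against 9.23 and 9.31. Of 24 tested genes, 12 were higher and 3 lower.

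Cytokine and chemokine genes differed in both directions. Il6 had signals of 8.89 and 8.91 in mast cells and of 4.02 and 4.41 in BMEos, at least 9.41-fold lower, and Lif, a cytokine gene of the IL-6 family, fell by 5.56 (SE 0.26). Ccl2, the monocyte chemoattractant gene, was at 11.82 and 11.97 in mast cells and at 5.77 and 5.88 in BMEos. In BMEos, Il1rn, which encodes the IL-1 receptor antagonist, had signals of 11.01 and 11.15 against 6.44 and 6.71, and the CC chemokine genes Ccl6 and Ccl9 were higher by 6.83 (SE 0.21) and 4.68 (SE 0.25). Ccl3 did not pass (difference 0.31, SE 0.18). Over the lists, 7 of 20 tested cytokine genes were higher (35.0%) and 7 lower (35.0%), and 6 of 17 chemokine genes were higher (35.3%) and 3 lower (17.6%).

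Some costimulation genes were higher in BMEos. Cd80 was at least 8.77-fold higher, with signals below background in mast cells (4.92 and 4.95), and Icosl was higher by 2.66 (SE 0.15). In the list of MHC class II and costimulation, 10 of 17 tested genes were higher and 2 lower, with a median difference of 0.88 that fell to 0.26 with the genes below background set at their bounds. H2-Aa, a class II chain gene, was at 5.93 and 6.62 in BMEos, close to background, and at 7.44 and 8.35 in BMBs.

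Most genes of sugar metabolism were higher in BMEos. Of 25 tested genes of glycolysis and hypoxia, 19 were higher in BMEos, 12 of them at least 2-fold, and 2 lower, with a median difference of 0.98. Hk2, a hexokinase gene, had signals of 10.69 and 10.58 in BMEos and of 7.23 and 7.32 in mast cells, and Egln3, an oxygen-sensing prolyl hydroxylase gene, of 10.70 and 10.71 against 5.17 and 5.65. The glucose transporter gene Slc2a3, the lactate exporter gene Slc16a3 and the hypoxia-induced mitophagy gene Bnip3 were higher by 2.25, 2.27 and 2.72. Slc2a1, the other main glucose transporter gene, and Hk1 did not pass, with differences of 0.23 and -0.28, and Ndrg1, also known as a hypoxia-induced gene, was lower in BMEos, with a difference of -2.98 (SE 0.16).

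Of 32 tested genes of cholesterol and fatty acid synthesis, 15 were lower in BMEos (46.9%, against 26.8% of all genes tested), 9 of them at least 2-fold, and 7 higher (21.9%, against 24.4%). The desaturase genes led, with Fads1 at 6.87 and 6.86 in BMEos and at 11.47 and 11.60 in mast cells, and Fads2 at 6.98 and 6.77 against 10.73 and 11.04. Scd2, a stearoyl-CoA desaturase gene, was lower with a difference of -2.81 (SE 0.22) and its relative Scd1 at least 2.11-fold, and the fatty acid synthase gene Fasn had a difference of -1.66 (SE 0.18). Srebf2, the main factor gene of sterol synthesis, and the squalene synthase gene Fdft1 did not pass, with differences of -0.24 and 0.39.

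Cell cycle genes were higher in BMEos in 21 of 44 tested cases, 11 of them at least 2-fold, and lower in 7, with a median difference of 0.49 (0.31 with the bounds). Mki67, a marker of dividing cells, had signals of 8.04 and 7.55 in BMEos and of 5.93 and 5.48 in mast cells, and the S-phase cyclin gene Ccne2 of 7.11 and 7.31 against 4.34 and 4.74. Ccnd2, a D-type cyclin gene, was lower, at 6.72 and 6.96 against 10.61 and 10.66. Most of the other lower genes were genes of DNA replication, while further replication genes of the list were higher or did not pass. The difference of Mki67 was 2.09, with 2.11 in B6 and 2.06 in Slpi-/- cells. Its wider error (SE 0.32) includes the spread of the BMB arrays, where its signals were 8.32 and 6.46. Among the survival genes, Bcl2 had signals of 8.33 and 8.18 in BMEos and of 11.68 and 11.53 in mast cells, a difference of -3.35 (SE 0.09), while Bcl2a1c, a gene of the A1 cluster of near-identical copies, was at least 4.12-fold higher.

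Genes of the actin cytoskeleton were higher in 24 of 37 tested cases and lower in 5. Lsp1, a leukocyte actin-binding protein gene, had signals of 11.31 and 11.32 in BMEos and of 5.89 and 5.99 in mast cells, and Coro1a, the coronin gene of leukocytes, was higher by 2.08 (SE 0.09). Scin, which encodes the actin-severing protein scinderin of secretory cells, was at 5.11 and 5.26 in BMEos and at 11.95 and 12.05 in mast cells, at least 80.6-fold lower. Among 44 tested lysosome genes, 19 were higher and 9 lower. Ctsh, the cathepsin H gene, had signals of 11.20 and 11.19 against 4.26 and 4.39, and the arylsulfatase B gene Arsb of 9.81 and 9.68 against 5.36 and 5.33, while the heparan sulfate-degrading sulfatase genes Sgsh and Ids were lower in BMEos, with differences of -2.72 (SE 0.11) and -2.26 (SE 0.09).

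Protease inhibitors of the serpin family divided by cell type. Serpinb2, the plasminogen activator inhibitor-2 gene, had signals of 12.56 and 12.45 in BMEos and of 6.21 and 5.67 in mast cells, and Serpinb1a, which encodes an inhibitor of neutrophil proteases, of 6.56 and 6.14 against 12.22 and 12.30. In BMBs both were high, at 10.52 and 10.44 and at 11.00 and 10.29. Slpi, the targeted gene (gene ID 20568, chromosome 2), was at 8.08 in B6 and 6.41 in Slpi-/- BMEos and at 6.53 and 6.47 in mast cells. It differed by 1.55 between the cell types in B6 cells and by -0.07 in Slpi-/- cells. Over both genotypes it did not pass (adjusted p = 0.55 by limma).

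Retnla, a resistin-like gene of alternative activation, had signals of 9.86 and 10.99 in BMEos and of 4.11 and 4.13 in mast cells, at least 25.7-fold higher, and Arg2, the mitochondrial arginase gene, was at least 3.92-fold higher. Ifitm1 and Ifitm2, genes of interferon-induced membrane proteins, were lower in BMEos, the latter at 7.99 and 7.72 against 11.81 and 11.87, although 9 of 21 tested interferon-induced genes were higher and 6 lower.

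The genes with the largest differences of all included several outside these lists. Cd24a, which encodes a glycoprotein of maturing granulocytes and lymphocytes, led the genes higher in BMEos, with signals of 12.88 and 12.91 against 4.56 and 4.61 in mast cells, at least 143-fold. Adgre1, the F4/80 gene, was at 12.09 on both BMEos arrays against 4.80 and 4.01, and Adgre4, a gene of that receptor family, at 10.66 and 10.71 against 3.90 and 3.80. Thbs1, the thrombospondin-1 gene, was at 12.82 and 12.79 against 5.35 and 5.55, and BMBs were at 10.43 and 10.42. Car4, a membrane carbonic anhydrase gene, was at 11.84 and 11.94 in BMEos and near 4.8 in mast cells (4.71 and 4.86), at least 71.3-fold higher, and BMBs (4.97 and 4.87) were at the mast cell level. Gapt, an adaptor gene of leukocytes, was at least 115-fold and Ly6a2, a gene of the Ly6 family, at least 94.6-fold higher.

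On the mast cell side, Prnp, the prion protein gene, had signals of 12.21 and 12.33 against 4.20 and 4.88 in BMEos, at least 97.2-fold lower in BMEos. Anpep, the aminopeptidase N gene (CD13), was at 12.77 and 12.85 in mast cells and at 12.80 and 12.64 in BMBs, and at 6.11 and 5.98 in BMEos. Dnm3, a dynamin gene, was at 10.50 and 10.55 in mast cells and below background in BMEos (4.23 and 4.49) and in BMBs (4.51 and 4.98). Ctla2a, which encodes a cysteine protease inhibitor, was at least 18.3-fold lower in BMEos. Cyp4a12a, a cytochrome P450 gene with a near-identical copy, was at 10.86 and 10.40 in mast cells, at least 31.1-fold above BMEos, and its signal may hold that of its copy. Olfr920, an olfactory receptor gene and so a member of the set that gave the background, was at 11.37 and 11.42 in mast cells and at 4.62 and 4.80 in BMEos, at least 53.1-fold lower in BMEos.

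**Figure D4:**
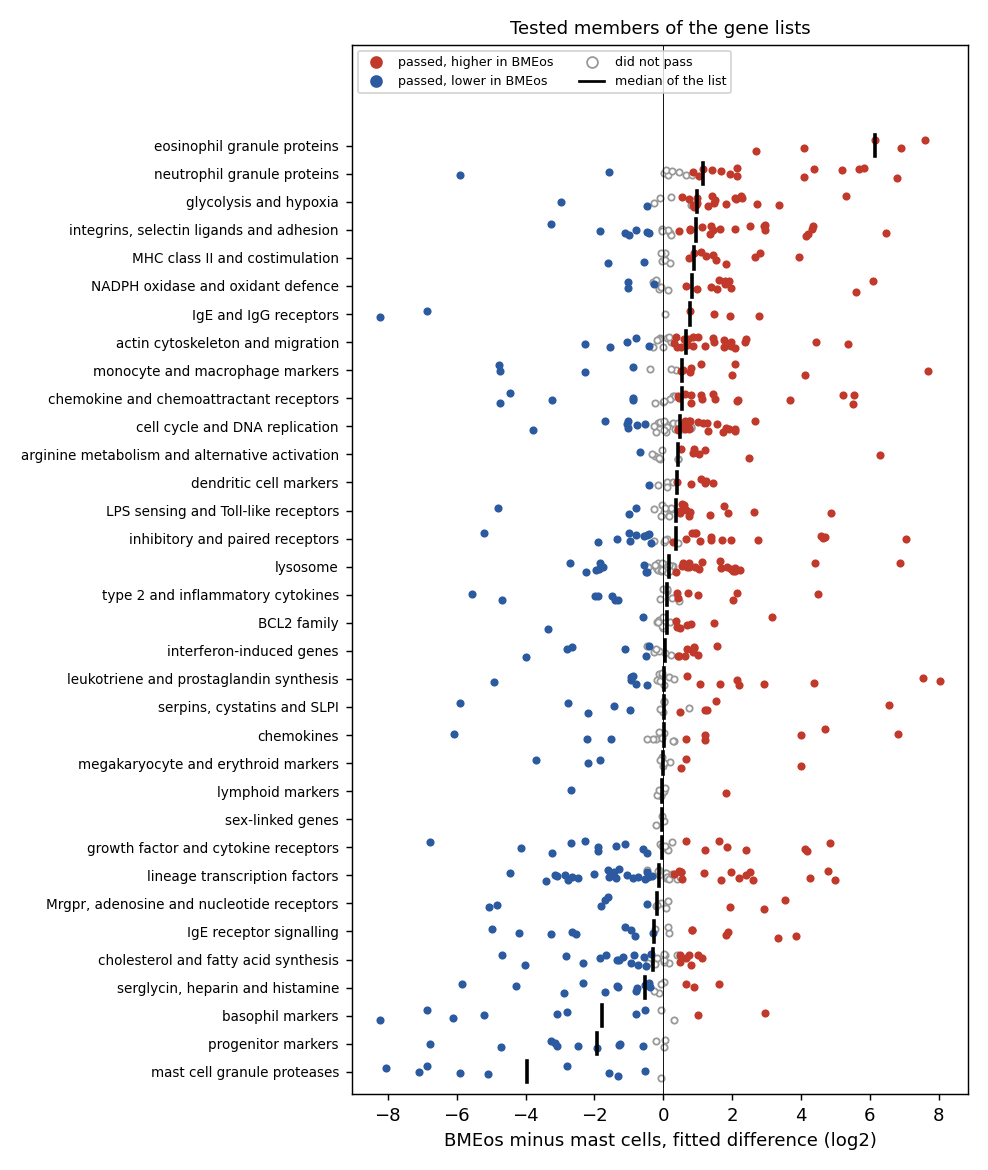
Fitted log2 differences, BMEos minus mast cells, of the tested members of the 34 gene lists, with 1 row per list, ordered by the median (black bar), and 1 point per gene. Red and blue points passed higher or lower in BMEos and open points did not pass. The eosinophil granule list has the highest median (6.16) and the mast cell granule protease list the lowest (-3.95).

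Markers of other cell types were read on the same arrays. Of 23 tested neutrophil granule genes, 14 were higher in BMEos, 13 of them at least 2-fold, and 2 were lower. The other 7 did not pass. Serpinb1a had the larger of the 2 lower differences (-5.91). The summed linear signal of the 23 genes was 12987 and 13171 in BMEos and 5794 and 6069 in mast cells. Serpinb1a, at log2 signals of 12.22 and 12.30 in mast cells, made up most of the mast cell sums. Pglyrp1, a peptidoglycan-binding granule protein gene, had signals of 12.49 and 12.50 in BMEos against 5.56 and 5.86. Ngp, a neutrophil granule protein gene, was at 11.18 and 10.51 against 4.94 and 5.11, and Retnlg at 10.04 and 10.60 against 5.30 and 4.95. In BMBs, Pglyrp1 was high too (11.50 and 11.27), whereas Ngp (6.77 and 5.02) and Retnlg (5.10 and 6.23) were not. Elane and Mpo, primary granule genes of the list that were picked after their values were seen, did not pass, with signals of 5.50 and 5.73 and of 6.24 and 6.43 in BMEos. The part of other granulocytes in the BMEos cultures was not tested. The monocyte and macrophage list had 9 of 16 genes higher and 4 lower, led by Adgre1 and by Csf1r, with F13a1 and Cx3cr1 on the mast cell side. The complement gene C1qb did not pass (difference 0.38, SE 0.14). Dendritic cell markers were higher in 6 of 11 cases with differences of at most 1.44, megakaryocyte and erythroid markers in 3 of 11 with 3 lower, and lymphoid markers in 1 of 9 with 1 lower. Of the megakaryocyte genes, Ppbp was at 8.79 and 9.14 in BMEos and Vwf at 9.89 and 9.94 in mast cells. Basophil markers were lower in BMEos in 8 of 12 cases (66.7%, against 26.8% of all genes tested). The lower ones included Fcer1a, Ms4a2, Gata2 and Cd200r3, which were high in mast cells, so this count gives no measure of basophils. Mcpt8 did not pass. The 2 higher markers were Itga2, the CD49b (DX5) gene, at least 6.34-fold higher, and Il4, picked after its values were seen, with a difference of 1.01. Sex-linked genes differed by at most 0.21 in absolute value, and 0 of 3 tested passed.

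Whether the genotype changed the comparison could be tested only weakly, with 1 mast cell array of each genotype. The difference between the cell types was compared between the genotypes with all 10 arrays, in a limma model with terms for IgE and LPS, and 1 of 13539 genes passed (0.00739%), Slc27a6, a fatty acid transporter gene. In all, 648 of the 13539 genes had an unadjusted p under 0.05, Slc27a6 among them. Slc27a6 was at 5.15 in B6 and 8.81 in Slpi-/- mast cells and at 4.84 and 4.64 in BMEos. With 1 array of each genotype and cell type, a single array sets this value. The targeted gene Slpi did not pass, although its value in the same comparison was -1.79. Genes that did not pass are therefore not shown to be unaffected by the genotype.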

How the data were processed

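The authors deposited 1 table of log2 signals from Affymetrix Mouse Gene ST arrays, with 34760 probe sets and values from 0.572 to 14.14. The submitters' processing notes name RMA and affy, and versions are not given in the sources used here. RMA gives no detection call. The platform annotation gave 1 gene symbol for 21640 probe sets, several for 1321 and none for 11799, and 21553 were matched to RefSeq. This left 19937 named genes. For 954 genes with several probe sets the one with the highest mean signal was used.

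Genes above background on at least 1 of the 6 unstimulated arrays were tested with limma 3.58.1 (R 4.3.3), with cell type and a block for genotype and 2 residual degrees of freedom. P-values were adjusted by the Benjamini-Hochberg method over all 12970 genes, with a threshold of 0.05. The comparison of cell type differences between genotypes used all 10 arrays. On simulated data of 12970 genes with 200 changed, 96% of the log2 changes of 1 and 100% of those of 2 were recovered, with 14 false calls of 210. The simulated noise was independent, drawn from the spread that limma fitted, with no genotype effect and far fewer changed genes than the 6646 that passed. These figures check the model on its own terms and do not measure errors between cultures. Alternatives changed the samples in the fit, the block, the scaling, the probe sets, the filter, the variance model and the test, and left out each array in turn. The number of arrays limits the precision.

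Named genes were the 15 highest and 15 lowest differences, the leading 6 members of each of 34 gene lists with up to 2 that did not pass, the genes that define the cell types, and genes called between genotypes. Exceptions are marked in the text. The comparison and the lists were chosen with earlier results of these data known. Python 3.11.15 was used for tables, with pandas 2.3.3 and numpy 2.4.6, and matplotlib 3.10.9 for plots.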

Additional observations from a re-analysis of the deposited data

Results flagged for a closer look

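Slc27a6 stood apart because its difference between the cell types differed between the genotypes. The Slpi-/- minus B6 difference of Slc27a6 in BMEos, less that in mast cells, was -3.66 on the log2 scale (SE 0.23, adjusted p = 0.0256 by limma). Its signal was 8.81 in Slpi-/- mast cells and between 4.62 and 5.15 on the other 7 arrays listed here, which were B6 mast cells (5.15), BMEos without LPS (4.84 and 4.64), BMEos with LPS (4.62 and 4.83) and unstimulated BMBs (4.76 and 4.63). The signal of 1 array set this value, and its cause was not tested.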

How the results depend on the processing

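Outside the methods' t-test, the alternatives gave 2165 to 2409 genes at least 2-fold apart, against 2351, held 92.1% to 100% of those genes, and turned the direction of 0. The methods' paired t-test on the 2 genotype pairs called 0 genes higher and 1 lower after Benjamini-Hochberg adjustment, with 0 and 0 at least 2-fold higher and lower, and 3544 genes at an unadjusted p under 0.05, against 7363 by limma. This t-test has 1 residual degree of freedom. The balance of 3167 genes higher and 3479 lower turned with arrays centred on their medians (3401 and 3092) and with background at the 99th percentile (3089 and 2871), and not without the genotype block (3210 and 3550). Leaving out 1 array gave 2317 to 2646 genes higher and 2553 to 2773 lower, and 1146 to 1240 and 1134 to 1194 at least 2-fold. Of 139 named genes in the text that passed, only Mcpt4 and Prss34 failed where they were tested under an alternative other than the t-test. Genes that a stricter filter left out were not counted as failing. Mcpt2, for example, was below the background at the 99th percentile on all 6 unstimulated arrays. Robust eBayes called 2 genes, not 1, between the genotypes. Some genes that had not passed changed sign, and the cause was not tested. Most of them were near 0 in the main fit, while Ccl3 (0.31) and Slpi (0.74) were further from it. Under quantile normalization Srgn was at -0.0041, Fcer1g at -0.0202, Id2 at -0.0075 and Xbp1 at -0.0351. Leaving out 1 array moved Mcpt8 between -0.1659 and 0.0300, Srgn between -0.0289 and 0.0775, Itgb3 between -0.1566 and 0.0589, Id2 between -0.0526 and 0.1117, Xbp1 between -0.0734 and 0.2201, Ccl3 between -0.0161 and 0.6438 and Slpi between -0.8651 and 2.3489.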
